A study of Mus musculus with 31 samples.

Results

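Activity-induced immediate early genes were followed in 2 brain regions of mice, the nucleus accumbens (NAc) and the medial prefrontal cortex (mPFC). The 10 genes are Fos, Fosb, Junb, Egr1, Egr2, Egr4, Arc, Npas4, Nr4a1 and Nptx2. They were chosen by name, each is read by its brightest probe with a RefSeq accession of that gene, and they are 10 of 30165 features tested. The animals were females of 2 inbred strains, C57BL/6J (C57) and DBA2/J (DBA), used at 12 weeks of age. In the repeated cross-fostering (RCF) groups, litters were passed from dam to dam between postnatal day 1 and day 4, through 4 adoptive mothers. Control litters were lifted out daily and given back to their own dam. All litters were weaned on day 28. RNA of each region was hybridised in 1 colour to Agilent arrays, 31 in all, and the series title names the gene Xlr4 and vulnerability to cocaine. The labels do not say that the animals were given a drug or a stimulus before dissection, so the values are those of the tissue as it was collected.

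Immediate early genes are transcribed within minutes of neuronal firing without new protein synthesis. Calcium entry and kinase cascades act on factors already bound at their promoters, chiefly CREB at cyclic AMP response elements and serum response factor at CArG boxes. Most of them encode transcription factors that start a second wave of genes, and a few, such as Arc and Nptx2, act at the synapse directly. In the striatum and frontal cortex, Fos, Egr1 and Arc are standard markers of cells that were recently active, and drugs of abuse and handling are known to raise them.

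Values are log2 signal minus the 75th percentile of the same array, so a difference of 1 is a doubling, and probes of different genes are not compared in level. Per array, 58.6% to 81.9% of probes exceeded the background mark. All 10 genes were measurable: on all 31 arrays 9 of their probes exceeded it, the Junb probe did so on 30, and none was saturated. In 4 pairs of arrays of 1 group the values differed by 0.917 to 1.63 times the spread of repeated spots, against 3.69 times or more in the other pairs, and each of the 4 pairs was averaged and counted as 1 sample, which left 27 samples. Controls then numbered 3 in C57 mPFC, 2 in C57 NAc, 3 in DBA mPFC and 4 in DBA NAc. RCF samples numbered 4, 4, 3 and 4 in that order. The 2 arrays of such a pair differed by at most 0.19 for 9 of the genes, against within-group standard deviations of 0.51 to 0.95. For Junb they differed by up to 0.88 (C57 NAc control 2 and 4) against a standard deviation of 0.56, so its values are less precise. The labels do not tie samples to separate animals, so p-values measure the spread between these samples.

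For 29 of the 31 arrays, the deposited value table pairs the array with another sample than the scanner files' listing does, and arrays were assigned by the value table. With this reading 6 of the 27 samples still had markers against their label. C57 mPFC control 3 and RCF 1 had striatal marker scores of 4.10 and 4.07, against 3.61 to 4.29 in the C57 NAc samples not in doubt. Their cortical marker scores of 0.38 and −0.25 lay above the −2.40 to −1.69 of those samples, so the profile was mixed. The striatal minus cortical scores were 3.72 and 4.32, against 0.24 or less in the other C57 mPFC samples. C57 NAc RCF 1 and C57 NAc control 1 and 3, which is 1 sample averaged over 2 arrays, had a cortical profile, with scores of −0.75 and −0.96, against 5.91 or more in the other C57 NAc samples. DBA mPFC control 1 and DBA NAc control 4 had C57 strain markers, and the former also lacked the level of Xist that the other samples had (−6.03 against −0.43 or more). These 6 samples in doubt were kept, and the values without them are given beside the results they moved. Each slide held 1 strain and 1 region, so a difference between strains or regions cannot be told apart from one between slides.

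The stretches of DNA before the transcript starts are shown because the genes rose and fell together between samples, as described further on. RefSeq's promoter table (GRCm38.p6) had entries for 7 of the 10 genes, Fos, Fosb, Junb, Egr2, Egr4, Npas4 and Nr4a1. The 250 bases before the start were searched on both strands for TGACG, the core of the cyclic AMP response element. All 7 genes held it, in Egr2 at 3 of its 5 listed starts, against 19.8% of the 27025 genes in the table. The full palindrome TGACGTCA, which holds TGACG on both strands, was in none of the 7 (1.77% of all genes). A CArG box (CC and GG around 6 bases that are A or T) was found in Egr2 alone among the 7, against 1.62% of all genes. TATAAA was found in Fos (14.3% of all genes), the EGR site GCGNGGGCG in Fosb and Nr4a1 (5.33%), and the AP-1 site TGANTCA in none (7.82%). A match describes these letters only and is not evidence of binding. Bases farther upstream were not searched, so a gene without a match may hold the site there. In the 5 sequences, capitals mark TGACG or its reverse complement CGTCA, and in Egr2 also the CArG box. They run 5′ to 3′ on the strand of the gene and end at the base before the start. Fos lies on the plus strand at chr12:85473640-85473889, Egr2 on the plus strand at chr10:67537619-67537868, Nr4a1 on the plus strand at chr15:101266596-101266845, Npas4 on the minus strand at chr19:4989972-4990221, and Junb, which with Nptx2 followed the others least, on the minus strand at chr8:84978749-84978998.
Fos: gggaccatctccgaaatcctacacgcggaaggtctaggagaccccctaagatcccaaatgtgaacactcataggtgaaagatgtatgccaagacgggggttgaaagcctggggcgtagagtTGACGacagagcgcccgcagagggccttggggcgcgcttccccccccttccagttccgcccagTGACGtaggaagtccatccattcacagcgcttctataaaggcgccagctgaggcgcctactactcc
Egr2: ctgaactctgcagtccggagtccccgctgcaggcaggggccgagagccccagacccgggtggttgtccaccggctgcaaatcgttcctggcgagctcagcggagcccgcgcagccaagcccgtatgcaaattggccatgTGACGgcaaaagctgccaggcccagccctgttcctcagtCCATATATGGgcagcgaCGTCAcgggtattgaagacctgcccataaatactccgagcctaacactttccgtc
Nr4a1: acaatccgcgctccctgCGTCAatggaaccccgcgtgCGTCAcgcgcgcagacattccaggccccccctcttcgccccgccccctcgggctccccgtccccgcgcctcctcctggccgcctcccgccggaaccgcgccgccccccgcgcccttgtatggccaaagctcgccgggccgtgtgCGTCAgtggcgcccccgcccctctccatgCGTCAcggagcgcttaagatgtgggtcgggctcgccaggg
Npas4: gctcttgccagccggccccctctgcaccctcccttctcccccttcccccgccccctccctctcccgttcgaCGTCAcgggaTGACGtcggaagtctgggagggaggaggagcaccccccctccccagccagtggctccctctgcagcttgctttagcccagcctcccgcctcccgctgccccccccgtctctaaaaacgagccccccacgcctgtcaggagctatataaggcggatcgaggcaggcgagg
Junb: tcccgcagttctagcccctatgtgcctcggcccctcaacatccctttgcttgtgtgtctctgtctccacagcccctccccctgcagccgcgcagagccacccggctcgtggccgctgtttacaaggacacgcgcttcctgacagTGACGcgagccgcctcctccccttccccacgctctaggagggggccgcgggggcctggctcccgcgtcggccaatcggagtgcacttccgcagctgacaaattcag
In Fos the copies of TGACG begin 129 and 66 bases before the start. In Nr4a1 there are 4 copies, which begin 233, 213, 69 and 40 bases before the start, and in Npas4 they begin at 179 and 169. In Egr2 the CArG box begins at 72, between copies of TGACG at 111 and 55, and the single copy in Junb begins at 106.

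Most of the genes were lower in the NAc than in the mPFC, and the difference was clearest in DBA mice and in Nptx2. In DBA mice 7 of the 10 genes were called lower in the NAc and none higher (limma, adjusted p under 0.05), where 36.5% of all features were called lower and 20.1% higher. The median of the 10 differences was −1.19, against −0.12 over all features, and without the samples in doubt 7 were called lower too. In C57 mice 9 of the 10 differences were below 0, their median was −0.65, and none was called, where 9.58% of all features were called in either direction. Among the 10 genes 4 had an unadjusted p under 0.05, as had 26.7% of all features. Without the samples in doubt, 5 were called lower in C57 mice, where 13.9% of all features were called lower. In tissue RNA, fewer cells of a type and less RNA per cell cannot be told apart.

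**Figure D1:**
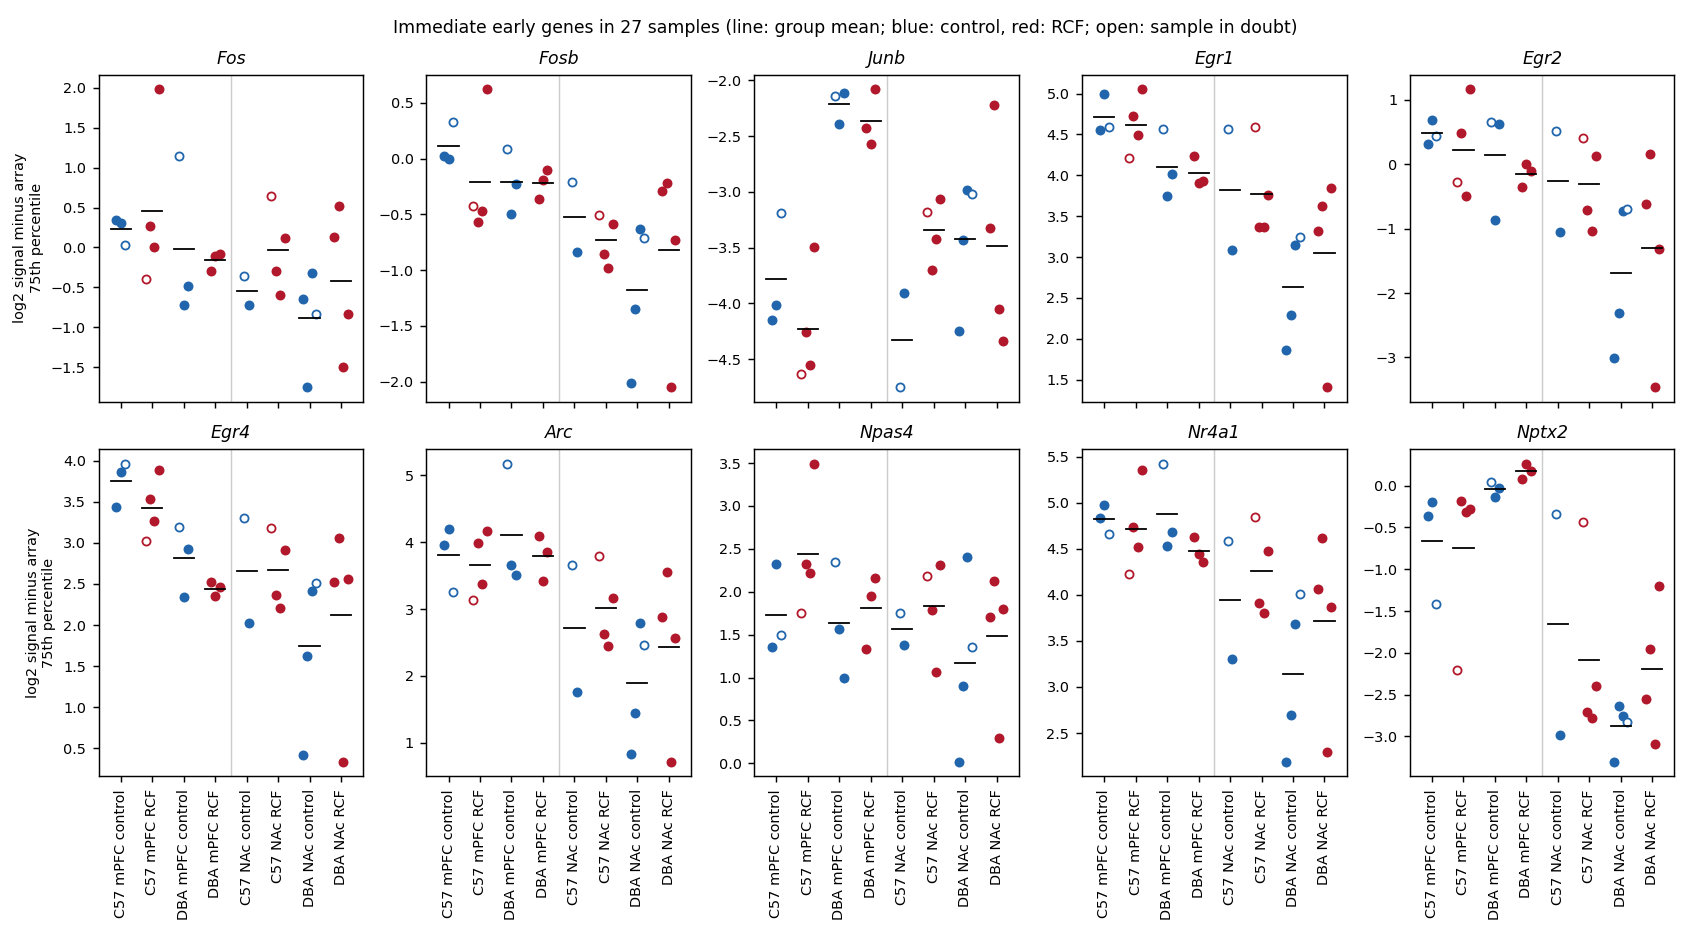
Levels of the 10 genes in 27 samples by group, as log2 signal relative to the 75th percentile of each array. Lines are group means, blue points controls, red points RCF, and open points the 6 samples in doubt. Nptx2 was at or below −1.20 in all 8 DBA NAc samples and at or above −0.14 in all 6 DBA mPFC samples, while most other genes overlapped between groups.

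Nptx2, the neuronal pentraxin that is secreted at synapses and clusters AMPA receptors, had the largest region difference of the 10 genes. In the DBA mPFC it ran from −0.14 through a median of 0.06 to 0.26 (n = 6), and in the DBA NAc from −3.30 through −2.69 to −1.20 (n = 8). The sets did not overlap, and 23.3% of all features likewise lay lower in the DBA NAc without overlap. The difference was −2.60 ± 0.42 (standard error, limma adjusted p = 2.05e-05). In C57 mice the mPFC ran from −2.21 through −0.32 to −0.18 (n = 7) and the NAc from −2.98 through −2.55 to −0.34 (n = 6). The low mPFC values, −2.21 in RCF 1 and −1.42 in control 3, and the high NAc values, −0.34 in control 1 and 3 and −0.44 in RCF 1, were those of the 4 C57 samples whose region markers went against the label. The C57 difference was −1.17 ± 0.44 with these samples (limma adjusted p = 0.094) and −2.54 without them. Because they were picked by region markers, leaving them out favours any gene that differs between the regions. A second, dimmer probe for Nptx2 followed the first with r = 0.859 over the 27 samples.

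Arc, the cytoskeleton-associated protein that moves to active synapses and speeds AMPA receptor uptake, was the next in size in DBA mice. It ran from 3.42 through a median of 3.75 to 5.17 in the DBA mPFC (n = 6) and from 0.72 through 2.52 to 3.56 in the DBA NAc (n = 8). Only DBA NAc RCF 2, at 3.56, lay within the range of the mPFC. The difference was −1.79 ± 0.41 (limma adjusted p = 0.000853). In C57 mice Arc was 3.73 ± 0.45 (SD, n = 7) in the mPFC and 2.91 ± 0.78 (SD, n = 6) in the NAc, a difference of −0.88 ± 0.44 (limma adjusted p = 0.202). Without the samples in doubt it was −1.71. Then no C57 NAc sample reached the lowest mPFC sample, which held for 13.8% of all features in that direction.

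The EGR genes encode zinc finger factors that bind GC-rich sites and follow neuronal firing, and Egr1 is the most widely used activity marker of them. Egr1 ran from 3.75 through a median of 3.97 to 4.56 in the DBA mPFC (n = 6) and from 1.41 through 3.19 to 3.84 in the DBA NAc (n = 8). The sets touched only through NAc RCF 4, at 3.84, and the difference was −1.22 ± 0.32 (limma adjusted p = 0.00288). Egr2 ran from −0.86 through −0.05 to 0.66 in the DBA mPFC and from −3.46 through −1.02 to 0.16 in the DBA NAc. It had the widest range of the 10 genes in the DBA NAc, 3.62 log2 units, and the difference was −1.49 ± 0.47 (limma adjusted p = 0.0105). Egr4 was 2.63 ± 0.35 (SD, n = 6) in the DBA mPFC and 1.93 ± 1.04 (SD, n = 8) in the DBA NAc, and its difference of −0.70 ± 0.35 did not pass (limma adjusted p = 0.0954). Without DBA NAc RCF 2 it was −0.86 and passed (limma adjusted p = 0.0432). In C57 mice the 3 genes differed by −0.93 to −0.64, and none passed. Without the samples in doubt they differed by −1.46 (Egr1), −1.35 (Egr4) and −1.24 (Egr2). Leaving out C57 NAc control 1 and 3 alone moved Egr1 to −1.23.

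Nr4a1, an orphan nuclear receptor, ran from 4.36 through a median of 4.58 to 5.42 in the DBA mPFC (n = 6) and from 2.19 through 3.78 to 4.62 in the DBA NAc (n = 8). The difference was −1.25 ± 0.32 (limma adjusted p = 0.00231), and only NAc RCF 2 (4.62) was inside the range of the mPFC. In C57 mice the difference was −0.67 ± 0.34 (limma adjusted p = 0.217), and −1.20 without the samples in doubt. Npas4, a bHLH-PAS factor induced by calcium entry, ran from 1.00 through 1.76 to 2.35 in the DBA mPFC and from 0.02 through 1.53 to 2.41 in the DBA NAc. Its sets overlapped almost wholly, and it passed in neither strain, with −0.40 ± 0.35 in DBA and −0.39 ± 0.38 in C57 mice.

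Fos, Fosb and Junb encode subunits of AP-1, in which a FOS protein pairs with a JUN protein. Fos ran from −0.72 through a median of −0.20 to 1.14 in the DBA mPFC (n = 6) and from −1.75 through −0.75 to 0.52 in the DBA NAc (n = 8). These overlapped, and the difference did not pass in DBA (−0.56 ± 0.36, limma adjusted p = 0.191) or C57 mice (−0.63 ± 0.39, limma adjusted p = 0.306). The highest Fos value of all samples was 1.98 in C57 mPFC RCF 4, against 0.27 or less in the other samples of its group. Fosb ran from −0.50 through −0.21 to 0.09 in the DBA mPFC and from −2.05 through −0.72 to −0.22 in the DBA NAc. It overlapped between them, and its difference of −0.79 ± 0.26 passed (limma adjusted p = 0.0128). Junb was −2.29 ± 0.20 (SD, n = 6) in the DBA mPFC and −3.45 ± 0.73 (SD, n = 8) in the DBA NAc, a difference of −1.16 ± 0.28 (limma adjusted p = 0.00145). In C57 mice Junb differed by 0.17 ± 0.30 and was the 1 gene higher in the NAc by value.

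The region differences changed with the samples included and with a region marker score in the fit. DBA NAc control 1 and RCF 3 were the lowest DBA NAc samples in Fosb, Egr1, Egr2, Egr4, Arc, Npas4, Nr4a1 and Nptx2. The mean of 12 striatal projection neuron markers was 1.92 and 1.98 in them, against 3.61 to 4.20 in the other 6 DBA NAc samples, and their mean cortical marker score of −1.78 and −2.19 lay within the range of the others (−2.98 to 0.20). Their part in the result was not tested. Without these 2 samples, 6 of the 7 genes were called lower in the DBA NAc (35.4% of all features were), with Arc at −1.33 and Nptx2 at −2.38, and Fosb at −0.44 no longer passed (limma adjusted p = 0.054). With the region marker score as a covariate, Junb alone was called (−1.63, limma adjusted p = 0.00777), where 20.6% of all features were called. The genes that lost their call were at −0.87 (Fosb), −0.64 (Egr1), −1.16 (Egr2), −1.17 (Arc), −0.86 (Nr4a1) and −0.69 (Nptx2). The score is made of markers of the regions, so it overlaps with the region difference itself. With the scanner files taken as they are listed, no gene was called in either strain, and the median was −0.07 in DBA and 0.05 in C57 mice. That listing gave 0% of all features called between the regions in both strains. With the arrays assigned by the value table, 56.6% were called in DBA and 9.58% in C57 mice. The fit with the listed files found no region difference in any feature, so it cannot single out these genes.

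**Figure D2:**
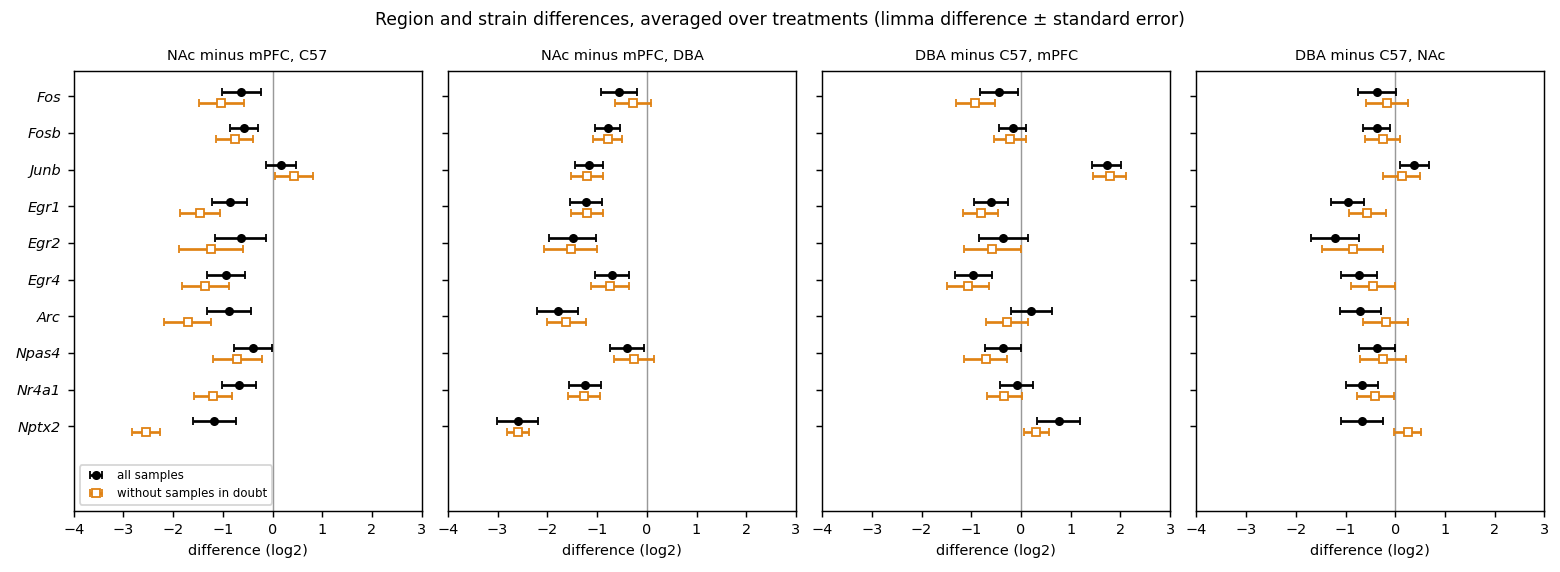
Differences between regions within a strain and between strains within a region, averaged over treatments, for the 10 genes (log2, limma difference ± standard error). Filled circles use all 27 samples and open squares leave out the 6 samples in doubt; in DBA mice 7 genes were lower in the NAc, and in the mPFC Junb was 1.72 higher in DBA.

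The strains differed in few of the genes with the arrays assigned by the value table. With the scanner files as listed, 4 genes were called lower in DBA in the mPFC and 7 in the NAc, where 23.1% and 28% of all features were called lower. With slide column as a term 4 were called lower in the NAc (19% of all features). In the mPFC 1 gene was called higher and 1 lower in DBA than in C57 mice, where 29% of all features were called higher and 19.1% lower. Junb was the higher one. It ran from −4.63 through a median of −4.15 to −3.19 in the C57 mPFC (n = 7) and from −2.57 through −2.27 to −2.08 in the DBA mPFC (n = 6). The sets did not overlap, and 17.6% of all features likewise lay higher in the DBA mPFC without overlap. The difference was 1.72 ± 0.29 (limma adjusted p = 6.18e-05). It was 1.78 without the samples in doubt and −0.28 with the scanner files as listed. DBA mPFC control 1, the sample with C57 strain markers, had Junb at −2.14, like the other DBA mPFC samples that shared its slide.

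Egr4 was the lower one, with 3.02 to 3.96 around a median of 3.53 in the C57 mPFC (n = 7) and 2.34 to 3.19 around 2.49 in the DBA mPFC (n = 6). The sets overlapped through C57 mPFC RCF 1 (3.02) and DBA mPFC control 1 (3.19), both in doubt. The difference was −0.96 ± 0.37 (limma adjusted p = 0.0354), and −1.06 without the samples in doubt (limma adjusted p = 0.0479). The call was lost, with differences of −0.98 to −0.84, when any 1 of 9 samples was left out: C57 mPFC control 2 or 3, C57 mPFC RCF 2 or 4, DBA mPFC control 2 and 4 or control 3, and DBA mPFC RCF 1 and 3, RCF 2 or RCF 4. The other 8 genes differed by −0.60 to 0.76 in the mPFC. Nptx2 was higher by value in DBA (0.76 ± 0.43), with all 6 DBA samples above all 7 C57 samples, and did not pass (limma adjusted p = 0.148). It was 0.31 without the samples in doubt.

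In the NAc, Egr1 was called lower in DBA than in C57 mice and no other gene was called, where 19.1% of all features were called lower and 12.7% higher. Egr1 ran from 3.09 through a median of 3.57 to 4.59 in the C57 NAc (n = 6) and from 1.41 through 3.19 to 3.84 in the DBA NAc (n = 8), so the sets overlapped. The difference was −0.96 ± 0.34 (limma adjusted p = 0.0329), and −0.56 without the samples in doubt (limma adjusted p = 0.318). It was also −0.56 without DBA NAc control 1 and RCF 3 (limma adjusted p = 0.113). The call was lost without any 1 of C57 NAc control 1 and 3, C57 NAc RCF 1, DBA NAc control 1, DBA NAc control 2 or DBA NAc RCF 3. Egr2 (−1.21 ± 0.49) was just outside the threshold (limma adjusted p = 0.0631). It was called without DBA NAc RCF 2, control 3 or control 4 or C57 NAc control 2 and 4, at −1.60 to −1.37, and in the last case Nr4a1 (−0.99) and Nptx2 (−1.33) were called too.

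Over all 8 groups, the DBA NAc controls had the lowest mean of 9 of the 10 genes, the exception being Junb, whose lowest mean was in the C57 NAc controls. The highest mean was in an mPFC group for all 10 genes. Of 70 steps between neighbouring groups in these orders, 3 separated groups whose samples did not overlap. These were Junb between DBA mPFC RCF and C57 NAc RCF, and Nptx2 between both DBA mPFC groups and between the DBA mPFC controls and the C57 mPFC controls. The same count was not made over all features, so 3 of 70 cannot be read as few or many.

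Repeated cross-fostering moved none of the 10 genes past the threshold in any strain or region. Of the 10 genes, limma called 0 in each of the 4 comparisons of RCF with control. Of all features it called 0.6% in the C57 NAc and 0% in each of the other 3. At an unadjusted p under 0.05 the count among the 10 was 1 in the C57 NAc, where 11.1% of all features had one, and 0 elsewhere (1.57% to 2.45%). The standard errors of the 40 differences were 0.34 to 0.76, so differences of the size measured could not be told from the spread between samples. On each slide the control arrays sat in slide columns 1 and 2 and the RCF arrays in columns 3 and 4, apart from 1 array of each kind, so treatment and slide column can hardly be told apart. With slide column as a term none of the 10 genes and 0% of all features were called. The medians were then −1.37 (C57 mPFC), −1.10 (C57 NAc) and −1.21 (DBA mPFC), and in the DBA NAc 5 genes were higher and 5 lower. Only the arrays out of place separate the term from treatment, so these medians are uncertain. With the scanner files as listed, Junb was called higher in RCF in both C57 regions, by 1.85 in the mPFC (limma adjusted p = 0.0031) and by 1.64 in the NAc (limma adjusted p = 0.00261). With that assignment 28% and 38% of all features were called in these comparisons.

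**Figure D3:**
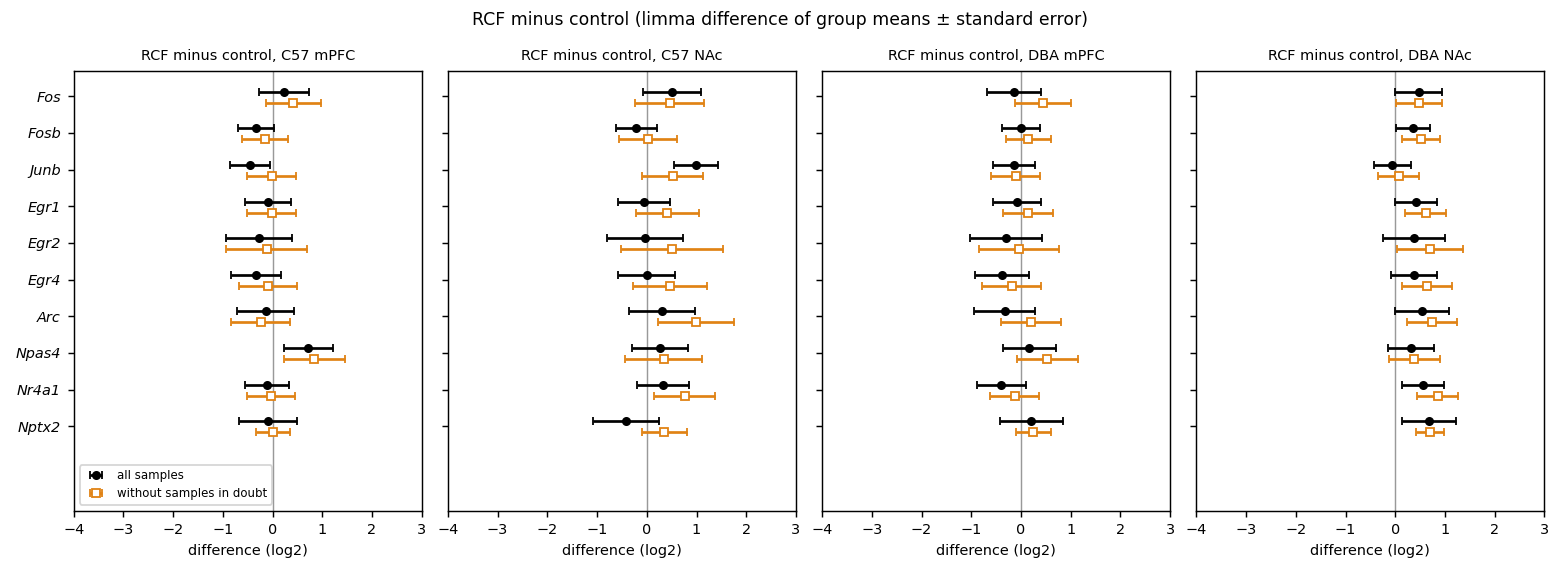
RCF minus control for the 10 genes in each strain and region (log2, limma difference of group means ± standard error). Filled circles use all samples and open squares leave out the samples in doubt; in the DBA NAc 9 of 10 genes lay above 0 by value, 5 of 10 with slide column as a term, and none passed.

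In the DBA NAc 9 of the 10 genes were higher by value in RCF than in control samples, with a median of 0.40 against 0.01 over all features. This direction was not the same in every fit. With slide column as a term, which only 1 control and 1 RCF array separate from treatment, 5 were higher and 5 lower. With the scanner files as listed 9 of 10 were lower, with a median of −0.53. That listing also gave 0% of all features called between the regions in DBA mice. Neither fit can settle the direction. Without the sample in doubt, control 4, all 10 were higher with a median of 0.62. Nr4a1 was 2.19, 2.70, 3.68 and 4.01 in the controls and 2.29, 3.87, 4.06 and 4.62 in the RCF samples. Arc was 0.84, 1.45, 2.47 and 2.79 in the controls and 0.72, 2.57, 2.88 and 3.56 in the RCF samples. In both genes the groups overlapped: RCF 3 lay at the level of the lowest control, RCF 4 lay between the controls, and RCF 1 and 2 lay above all 4. The differences were 0.56 ± 0.42 for Nr4a1 and 0.54 ± 0.54 for Arc (limma adjusted p = 1 for both). Nptx2 was −3.30, −2.83, −2.75 and −2.63 in the controls and −3.09, −2.55, −1.95 and −1.20 in the RCF samples, a difference of 0.68 ± 0.54 (limma adjusted p = 1). The highest Nptx2 value, in RCF 4, went with the highest cortical marker score of the 8 samples (0.20, against −2.98 to −0.90 in the others). RCF 2, next in both, had a cortical score of −0.90. The 12 cortical markers were higher by value in RCF than in control DBA NAc samples, with a median of 0.80 and none called, and their part in the result was not tested. Without control 1 and RCF 3, Fos differed by 0.90 and Nr4a1 by 0.72, and none of the 10 passed. Junb differed by −0.06 ± 0.37.

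In the C57 NAc 6 genes were higher and 4 lower by value, with a median of 0.14 against −0.01 over all features. Junb was −4.75 and −3.91 in the controls and −3.70, −3.42, −3.18 and −3.06 in the RCF samples. All 4 RCF samples were above both controls, which held for 7.72% of all features, and the difference was 0.99 ± 0.45 (limma adjusted p = 0.421). The lower control is a sample in doubt, and without the samples in doubt the difference was 0.52 ± 0.61 (limma adjusted p = 1). The 2 arrays averaged into the upper control differed by 0.88. Arc was 1.76 and 3.66 in the controls and 2.45, 2.63, 3.16 and 3.80 in the RCF samples. The high control, control 1 and 3, and the highest RCF sample, RCF 1, were the samples with cortical markers. Without them 1 control and 3 RCF samples remained, Arc was 0.99 higher and 9 of 10 differences were 0.34 or more, with Fosb at 0.03. The lone control was then assumed to vary like the other groups, and none passed.

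In the C57 mPFC 8 of the 10 genes were lower by value in RCF, with a median of −0.12 against −0.01 over all features, and −0.03 without the samples in doubt. Npas4 had the largest difference, 0.72 ± 0.50 (limma adjusted p = 1), with 1.36, 1.50 and 2.32 in the controls and 1.75, 2.22, 2.32 and 3.49 in the RCF samples. The highest value was that of RCF 4, which was also the highest sample of its group in all 10 genes except Nptx2. Fos in that group was −0.40, 0.00, 0.27 and 1.98, and Fosb −0.57, −0.47, −0.43 and 0.62. Fos in the controls was 0.03, 0.31 and 0.34, inside the range of the RCF samples.

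In the DBA mPFC 8 of the 10 were also lower by value in RCF, with a median of −0.14 against −0.01, and without the sample in doubt 6 were higher and 4 lower with a median of 0.15. Nptx2 was −0.14, −0.03 and 0.04 in the controls and 0.08, 0.17 and 0.26 in the RCF samples. All RCF samples were above all controls, which held for 4.67% of all features, by 0.21 ± 0.63 (limma adjusted p = 1). With 3 samples against 3, no exact permutation test over samples can pass the threshold. Arc was 3.51, 3.66 and 5.17 in the controls and 3.42, 3.85 and 4.09 in the RCF samples, and the 5.17 was that of control 1, a sample in doubt. Without that sample the difference in Arc was 0.20, against −0.33 ± 0.62 with it, and Fos was 0.44 higher, against −0.14 ± 0.55. In both cases none passed.

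The effect of RCF was not shown to differ between strains or regions for any of the 10 genes. limma called 0 of the 10 and 0% of all features for the difference between strains in the mPFC and in the NAc, and for the difference between regions in C57 and in DBA mice. By unadjusted p, the count was 1 of the 10 for the regions in C57 mice, against 4.5% of all features. It was 0 in the other 3, where the shares of all features were 1.46% (strains, mPFC), 7.68% (strains, NAc) and 1.05% (regions, DBA). In DBA mice all 10 genes had a more positive RCF difference in the NAc than in the mPFC, with a median of 0.55 against 0.01 over all features and standard errors of 0.52 to 0.95. It was 9 of 10, with a median of 0.46, without the samples in doubt. The 10 genes move together between samples, so they are not 10 separate observations.

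Between samples of 1 group, the genes rose and fell together. For each pair of genes the deviations from the group means were correlated over the 27 samples, with 100000 permutations of samples within groups and Benjamini-Hochberg adjustment over the 45 pairs. Pearson's r was positive in 44 pairs, with a median of 0.727, and 38 pairs passed by Pearson's r and 38 by Spearman's rho. Nr4a1 followed the other genes most closely, with a median r of 0.901, and Nptx2 (0.515) and Junb (0.541) least. Nr4a1 and Arc had r = 0.953 and rho = 0.94 (adjusted permutation p = 0.000112 and adjusted permutation p = 0.00015). The p of 1e-05 behind these is the smallest the permutations can give. Egr2 and Egr4 had r = 0.945 and rho = 0.943. Without the 2 samples farthest from the median of the first gene, r was 0.928 for Nr4a1 with Arc and 0.912 for Egr2 with Egr4. Junb and Nptx2 had r = −0.0212 and rho = −0.0269 (adjusted permutation p = 0.933 and adjusted permutation p = 0.921), the only negative pair.

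**Figure D4:**
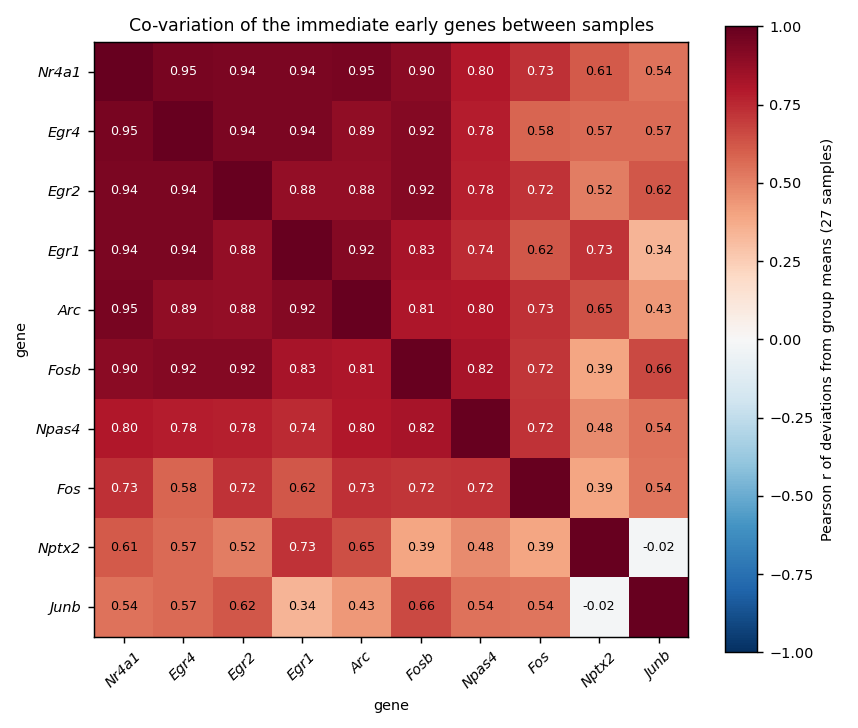
Pearson's r between the deviations of each pair of genes from their group means over 27 samples, both axes listing the 10 genes and colour running from −1 to 1. The pairs without Junb and Nptx2 had r from 0.582 to 0.953, and Junb with Nptx2 had r = −0.0212.

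With the samples in doubt included, the pattern was present on each slide, each of which holds 1 strain and 1 region. The median r was 0.746 for C57 mPFC (n = 7), 0.842 for C57 NAc (n = 6), 0.631 for DBA mPFC (n = 6) and 0.784 for DBA NAc (n = 8). The 28 pairs without Junb and Nptx2 were positive on all 4 slides, with medians of 0.744 to 0.937. Junb departed from the others in the C57 NAc, where 2 of its 9 pairs were positive and the median was −0.254. Its control values there, −4.75 and −3.91, are averages over arrays that differed by 0.59 and 0.88 in Junb. The sample at −4.75, control 1 and 3, is also a sample in doubt with a cortical profile. The part of either in the departure was not tested. Leaving out 1 sample at a time gave a median r over all pairs of 0.668 to 0.765.

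Part of the agreement of Nptx2 with the other genes rested on 8 samples. Without the 6 samples in doubt the median over all 45 pairs was 0.77, and without DBA NAc control 1 and RCF 3 as well (19 samples) it was 0.707. In that smaller set 3 of the 9 pairs with Nptx2 were positive, with a median of −0.0737, whereas the 28 pairs without Nptx2 and Junb all stayed positive, from 0.507 to 0.967. The 9 pairs with Junb had a median of 0.707 there, against 0.541 over all 27 samples.

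Compared with other features on the arrays, 6 of the genes were each closer to the mean of the other 9 than any of 30156 features was. These were Nr4a1 (r = 0.973), Egr2 (0.939), Egr4 (0.934), Arc (0.93), Egr1 (0.918) and Fosb (0.903). Npas4 was 19th (0.834), Fos 204th (0.732), Nptx2 788th (0.552) and Junb 1298th (0.52). Without the samples in doubt Fosb, Egr2, Egr4 and Nr4a1 were again the closest feature, Arc was 3rd and Egr1 18th. These are descriptions over 27 samples that share slides and scaling.

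The 10 named features outside the set whose deviations were most like the mean of the 10 genes had r from 0.848 to 0.902. They were Ankrd33b (0.902), the death receptor gene Tnfrsf25 (0.874), the transcriptional corepressor gene Bcorl1 (0.87), Inhba (0.863), the diacylglycerol kinase gene Dgki (0.861), Ptgs2 (0.86), Gadd45b (0.853), Ociad2, the postsynaptic scaffold gene Dlgap2 and Tmem121b. Of these, 3 are themselves activity-regulated by textbook knowledge: Inhba, the activin A subunit, Ptgs2, the inducible cyclooxygenase, and Gadd45b, a growth arrest and DNA damage gene. Without the samples in doubt the 10 had r from 0.82 to 0.899.

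Other genes of the activity response moved with the 10 in part, and the genes named here were picked after their values were seen. Of 32 further rapid response genes 31 were measured, and the median r of their deviations with the mean of the 10 genes was 0.52, with 26 positive, against −0.06 over all features. Above the 95th percentile of all features (0.48) were 17 of the 31. They included the dual specificity phosphatases Dusp5 (0.69), Dusp1 (0.67) and Dusp6 (0.6), Btg2 (0.73), Fosl2 (0.73), Nr4a3 (0.7) and Per1 (0.65), while Egr3 had r = 0.54. Jun (0.26), Nr4a2 (0.19) and Jund (−0.16) were lower. The 15 later response genes had a median r of −0.07 and included the highest, Inhba (0.86), Homer1 (0.75) and the lowest, Pcsk1 (−0.58); Bdnf had r = 0.4, and −0.07 without the samples in doubt. Among 20 upstream regulators the median was 0.52, with 10 above the 95th percentile. These included the kinase Camk4 (0.75), the EGR corepressor Nab2 (0.75), Mef2d (0.73), the L-type calcium channel subunit Cacna1c (0.72), the CREB coactivator Crtc1 (0.7) and Srf (0.59), while Creb1 had r = −0.39.

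The same lists were set beside the 10 genes in the comparisons of regions and strains. In the DBA NAc against the DBA mPFC, 15 of the 31 rapid response genes were called lower and 5 higher, with a median of −0.51. Over all features 36.5% were called lower and 20.1% higher. The most firmly called were Ier5 (−2.60 ± 0.33), Dusp6 (−1.48 ± 0.26), Trib1 (−1.33 ± 0.24), the AP-1 gene Fosl1 (−1.68 ± 0.31) and Klf10 (−2.27 ± 0.42). Of the 15 later response genes 8 were called lower, among them the neurotrophin gene Bdnf (−3.38 ± 0.57), Nptx1 (−2.88 ± 0.51) and Nrn1 (−4.38 ± 0.73). The 4 called higher included Scg2 (1.15 ± 0.22) and Penk (3.52 ± 0.70). Penk is also among the striatal markers and Nrn1 among the cortical markers. Among the 20 regulators 8 were called lower and 2 higher, close to the 36.5% and 20.1% of all features called in these directions, with the NMDA receptor subunit Grin1 at −0.79 ± 0.12 and Camk2a at −1.72 ± 0.32. In C57 mice 6 rapid response genes were called lower and none higher, including Per1 (−0.58 ± 0.15), Dusp1 (−0.76 ± 0.20) and Jun (−0.51 ± 0.14), where 5.73% of all features were called lower.

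In the mPFC comparison of the strains, where 29% of all features were called higher in DBA and 19.1% lower, 3 of the 31 rapid response genes were called higher, Ier5 (2.33 ± 0.34), Ier2 (1.59 ± 0.37) and Fosl1 (1.40 ± 0.32), and 2 lower, Sik1 (−1.45 ± 0.21) and Klf4 (−0.37 ± 0.11). In the NAc, where 12.7% of all features were called higher and 19.1% lower, 1 was called higher in DBA, Gadd45g (0.53 ± 0.13), and 4 lower, Per1 (−0.44 ± 0.14), Dusp6 (−0.75 ± 0.26), Sik1 (−0.56 ± 0.21) and Csrnp1 (−0.57 ± 0.22). No gene of these 3 lists was called in a comparison of RCF with control. The rapid response list had a median of 0.11 in the DBA NAc and −0.14 to 0.04 in the other 3.

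**Figure D5:**
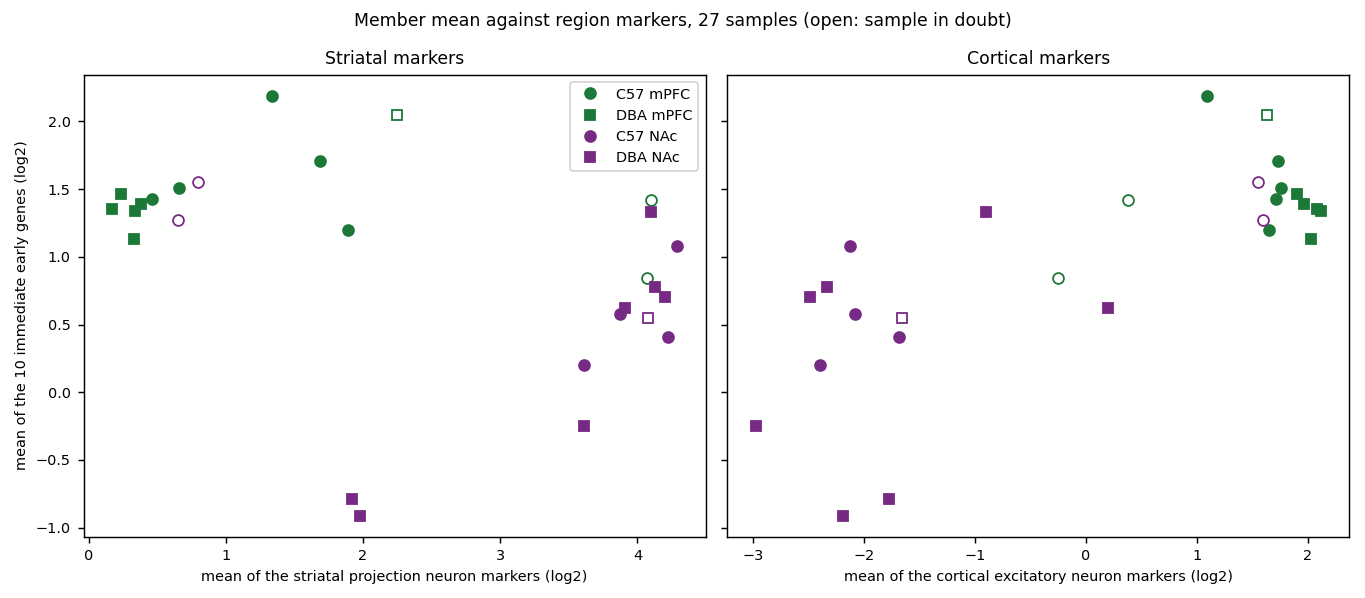
Mean of the 10 immediate early genes against the mean of 12 striatal markers (left) and of 12 cortical markers (right) in 27 samples, all on the log2 scale relative to the array's 75th percentile. Green marks the mPFC, purple the NAc, circles C57, squares DBA and open symbols samples in doubt; DBA NAc control 1 and RCF 3 are the 2 lowest samples, at striatal scores of 1.92 and 1.98.

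The labelled regions were checked against neuron markers, and the mean of the 10 genes was set beside them. The striatal score was 3.61 to 4.29 in the C57 and DBA NAc samples other than C57 NAc control 1 and 3 (0.65), C57 NAc RCF 1 (0.80), DBA NAc control 1 (1.92) and DBA NAc RCF 3 (1.98). In the mPFC samples not in doubt it was 0.17 to 1.89. The mean of the 10 genes and the striatal score went together in the DBA NAc (r = 0.933, n = 8) and DBA mPFC (r = 0.953, n = 6), and in opposite directions in the C57 NAc (r = −0.874, n = 6) and C57 mPFC (r = −0.522, n = 7). In the DBA NAc the 2 samples low in striatal markers stood apart, with −0.79 and −0.91 for the mean of the 10 genes in control 1 and RCF 3, against −0.25 to 1.33 in the other 6. In the DBA mPFC control 1, a sample in doubt, stood apart, with a striatal score of 2.25 and a mean of the 10 genes of 2.05. The rest of that set had striatal scores of 0.17 to 0.38 and means of 1.13 to 1.46. Over all 27 samples the deviations had r = 0.0191 and, without the samples in doubt, r = 0.761, so the relation rests on the samples included. With the cortical score r was 0.461 over 27 samples and 0.114 without the samples in doubt. The other 4 cell type scores had r from −0.334 (oligodendrocytes) to 0.137 (microglia), and the percentage of probes well above background had r = 0.384. The array's 75th percentile, by which the values were scaled, had r = 0.389 and rho = 0.522, and r = 0.995 within the DBA mPFC (n = 6, control 1 among them). Its part in the co-variation was not tested. These 8 relations are descriptions of a summary over genes that move together, and no p is given for them.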

How the data were processed

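RNA of 2 brain regions was measured on 31 1-colour Agilent arrays. The authors deposited scanner files with spot intensity from Agilent Feature Extraction 10.7.3.1, per the file headers, background-subtracted and spatially detrended, with a design annotated on mm9. The deposited value table holds log2 values, each column of which follows the signals of 1 scanner file almost exactly. Each scanner file was given the sample of the table column it correlated with best.

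From the files, log2 processed signal was averaged over spots of a probe and the array's 75th percentile subtracted, and near-duplicate arrays of 1 group were averaged. Probes had to exceed the background mark on a minimum of 3 arrays in some group, and the brightest probe stood for a gene (30165 features, 17897 with a symbol through RefSeq). limma 3.58.1 (R 4.3.3) fitted 1 model of 8 group means with an intensity trend, and p-values were adjusted by Benjamini-Hochberg over all features, with a threshold of 0.05, in 12 comparisons. Correlations used Python 3.11.15. The fit was tested on simulated data.

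The genes named are the 10 chosen ones, up to 5 called genes of each list and comparison, and the 10 named features closest to their mean; other list genes given by their correlation were picked after their values were seen. Members and lists were chosen with earlier results of these data known. Alternatives were the listed file assignment, unaveraged arrays, samples in doubt left out, quantile and normexp normalization, other probe filters and probe summaries, array weights, smaller fits, a region covariate, slide position, a replicate block and each sample left out. Normexp used the median spot signal, because the mean signal was not among the columns used. The number of arrays limits the precision.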

Additional observations from a re-analysis of the deposited data

Results flagged for a closer look

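In 3 of 40 gene and group combinations of 4 samples, 1 sample stood far from the others by Dixon's test. Chance gives such a sample in about 1 of 20 groups, and the genes are correlated. Fosb was 0.62 in C57 mPFC RCF sample 4, against −0.57 to −0.43 in the other 3, and the same sample was the highest of its group in 8 further genes. Nptx2 was −2.21 in C57 mPFC RCF sample 1, against −0.32 to −0.18 in the other 3, and that sample had striatal markers at the NAc level. Nptx2 was −0.44 in C57 NAc RCF sample 1, against −2.78 to −2.40 in the other 3, and that sample had a cortical marker profile.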

How the results depend on the processing

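Summary values (counts of genes called and median differences) moved in 55 of 655 recomputations, and single genes crossed the threshold in 72 and reversed in 4 of 3068; why was not tested. The 4 reversals came with the scanner files as listed: Junb for RCF in the C57 mPFC (1.85), and for DBA minus C57 in the mPFC Junb (−0.28), Arc (−1.33) and Nptx2 (−1.67). That assignment also gave 1 gene called for RCF in each C57 region, medians of −0.79 and −0.53 for RCF in the DBA mPFC and NAc, and for NAc minus mPFC medians of 0.05 (C57) and −0.07 with 0 called (DBA). It gave 4 and 7 genes called for DBA minus C57 in the mPFC and NAc, and −0.76 for strain by treatment in the mPFC. With slide column as a term, RCF medians were −1.37 (C57 mPFC), −1.10 (C57 NAc) and −1.21 (DBA mPFC), with 5 genes higher and 5 lower in the DBA NAc, strain by treatment in the NAc and region by treatment in DBA were both 1.18, and 4 genes were called for DBA minus C57 in the NAc. For NAc minus mPFC in C57 mice, 1 gene was called with unaveraged arrays, array weights or only the groups compared. The median there was −1.22 when samples in doubt were left out. With the region covariate 1 was called in DBA mice. For DBA minus C57 in the NAc, 2 were called with unaveraged arrays, and 0 without the samples in doubt, with only the groups compared, with the region covariate or without the samples low in striatal markers, a choice made after seeing the data. In the mPFC 1 was called with quantile, normexp, or probes well above background on all arrays. Of all features, unaveraged arrays called 5441 for NAc minus mPFC in C57 mice and 12008 for DBA minus C57 in the NAc. A count given without its share over all features cannot be read as particular to these genes. The median pairwise r was 0.673 to 0.79 under other processing and sample choices, and 0.667 without the 2 farthest samples of each pair. The labels' replicate numbers did not pair the samples: correlations of same-numbered samples ran from −0.648 to 0.665. A replicate block on all 31 arrays gave 2 genes called for DBA minus C57 in the NAc and the same count as reported in the other comparisons.

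Leaving out 1 sample at a time gave, for RCF, 0 genes called in all 4 comparisons and medians of −0.31 to 0.04 (C57 mPFC), −0.58 to 0.69 (C57 NAc), −0.38 to 0.15 (DBA mPFC) and 0.11 to 0.97 (DBA NAc). For NAc minus mPFC it gave 0 to 2 called and −1.01 to −0.41 in C57 mice, and 7 to 8 called and −1.35 to −0.98 in DBA mice. For DBA minus C57 it gave 1 to 2 called and −0.36 to −0.10 in the mPFC, and 0 to 4 called and −1.02 to −0.28 in the NAc. The interactions had 0 called and medians of −0.35 to 0.23 (strain, mPFC), −0.27 to 0.95 (strain, NAc), −0.41 to 0.98 (region, C57) and 0.28 to 1.01 (region, DBA). The median pairwise correlation was 0.668 to 0.765.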
